A study of Mus musculus with 40 samples.

Results

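The mouse Cyp2b cytochrome P450 genes were followed by their probe sets in liver and kidney of male mice given phenobarbital (PB). All probe sets that the array annotation assigns to Cyp2b10, Cyp2b9, Cyp2b13 or Cyp2b19 were taken, which gave 6 probe sets for 4 genes among 45037 probe sets and 18193 gene symbols. Cyp2b10 had 3 of them (1425645_s_at, 1422257_s_at and 1451787_at), and Cyp2b9 (1419590_at), Cyp2b13 (1449479_at) and Cyp2b19 (1419731_at) had 1 each. Probe sets 1425645_s_at and 1451787_at are annotated to the same transcript accession, and probe sets whose name ends in _s_at can take up related transcripts. RNA was profiled on 40 Affymetrix arrays, 10 in each of 4 groups: livers of PB mice, livers of control mice, kidneys of PB mice and kidneys of control mice. All animals were male B6C3F1/Crl mice (C57BL/6 father, C3H/He mother), 29 to 32 days old on arrival and acclimatised for 5 days. PB was given at 0.05% (w/v) in the drinking water over 28 days, and a liver and a kidney with the same number came from the same animal (animals 11 to 20 with PB, animals 1 to 10 control). Males alone were used, and whole tissue was extracted, so that a change in the number of cells that carry a transcript and a change in its level per cell cannot be told apart.

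Cytochrome P450 enzymes of the Cyp2b group oxidise drugs, steroids and fatty acids in the endoplasmic reticulum, with electrons from NADPH. PB activates the nuclear receptor CAR (Nr1i3), which moves into the hepatocyte nucleus, pairs with the retinoid X receptor and binds an enhancer module far upstream of Cyp2b genes. Cyp2b10 is the classical PB-inducible P450 of mouse liver. Cyp2b9 and Cyp2b13 are known as female-predominant liver P450s, and Cyp2b19 is an arachidonic acid epoxygenase of keratinocytes. The genes lie in 1 cluster of Cyp2 genes on chromosome 7, where the RefSeq annotation (GRCm38.p6) lists Cyp2b10, Cyp2b13, Cyp2b9 and Cyp2b19 in this order. Cyp2b pseudogenes lie between Cyp2b10 and Cyp2b9. Between Cyp2b9 and Cyp2b19 lie Cyp2a4, Nlrp and Vmn1r genes and Cyp2b23, a further protein-coding Cyp2b gene to which no probe set was matched and which was not analysed here.

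To show how alike the starts of these genes are, the 300 bases around each annotated transcription start are printed here from RefSeq (GRCm38.p6, plus strand). They lie at chr7:25897408-25897707 for Cyp2b10, chr7:26061245-26061544 for Cyp2b13, chr7:26173159-26173458 for Cyp2b9 and chr7:26756892-26757191 for Cyp2b19. Capitals mark the motif ATAAAA in Cyp2b10 and Cyp2b19, and the differing bases in Cyp2b9 and Cyp2b13.
Cyp2b10: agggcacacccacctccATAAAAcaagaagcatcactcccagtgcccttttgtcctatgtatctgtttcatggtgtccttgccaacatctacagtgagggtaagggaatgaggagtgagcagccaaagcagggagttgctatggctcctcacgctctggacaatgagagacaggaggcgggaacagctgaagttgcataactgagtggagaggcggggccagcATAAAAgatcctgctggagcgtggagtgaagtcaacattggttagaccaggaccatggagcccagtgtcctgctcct
Cyp2b19: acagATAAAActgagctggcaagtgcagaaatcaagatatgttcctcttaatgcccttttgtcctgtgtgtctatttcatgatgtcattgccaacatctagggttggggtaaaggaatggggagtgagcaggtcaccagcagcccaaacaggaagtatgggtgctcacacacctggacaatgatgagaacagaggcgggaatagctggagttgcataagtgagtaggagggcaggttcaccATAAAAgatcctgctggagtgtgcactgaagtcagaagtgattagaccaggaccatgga
Cyp2b9: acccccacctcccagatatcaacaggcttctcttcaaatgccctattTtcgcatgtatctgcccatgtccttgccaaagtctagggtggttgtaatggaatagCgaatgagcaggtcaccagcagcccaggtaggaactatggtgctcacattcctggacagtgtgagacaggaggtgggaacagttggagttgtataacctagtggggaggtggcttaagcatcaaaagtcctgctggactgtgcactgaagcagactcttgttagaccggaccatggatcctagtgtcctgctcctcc
Cyp2b13: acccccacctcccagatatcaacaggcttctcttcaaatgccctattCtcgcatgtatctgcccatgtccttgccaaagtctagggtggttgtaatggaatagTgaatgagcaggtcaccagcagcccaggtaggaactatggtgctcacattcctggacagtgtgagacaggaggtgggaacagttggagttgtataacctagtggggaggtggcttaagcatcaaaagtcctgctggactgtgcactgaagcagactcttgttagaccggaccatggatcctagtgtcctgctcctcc
The Cyp2b9 and Cyp2b13 windows were identical at 298 of 300 bases, and the differences were T48C and C104T, written as the Cyp2b9 base, the position from 1 at the 5′ end of the window and the Cyp2b13 base. Cyp2b10 aligned to Cyp2b9 with 80.07% identity and to Cyp2b19 with 84.76% identity over the bases that could be aligned. ATAAAA, which resembles the TATA box of many promoters, began at -27 and -233 from the annotated start in Cyp2b10 and at -9 and -246 in Cyp2b19, and on either strand it occurred in 18.5% of all 32851 promoter windows of this length. AGGTCA, the half-site of many nuclear receptors, was found at -138 in both Cyp2b9 and Cyp2b13 and at -121 in Cyp2b19, and it occurred in 16.3% of all windows on either strand. GGCGGG (35.3% of windows) was found in Cyp2b10 and Cyp2b19, and CCAAT (37.4% of windows) on the opposite strand of Cyp2b10. TTGCATAA (0.743% of windows) began at -58 in Cyp2b10 and at -40 in Cyp2b19. Its looser form TTGCNNAA (10.8% of windows) matched at the same bases of these genes and at -180 in both Cyp2b9 and Cyp2b13. The 6 motifs were searched on both strands and were chosen after the sequences were seen, and apart from TTGCATAA and TTGCNNAA they do not overlap each other in the 4 windows.

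In liver, Cyp2b10 and Cyp2b9 were higher in PB mice than in control mice, whereas Cyp2b13 and Cyp2b19 stayed under a mean of 50 in both groups. Values are MAS5 signals, the linear array intensity that the authors scaled to a common trimmed mean, and a mean of 50 is the level that the study's methods require in at least 1 group before a probe set is compared. Of the 6 Cyp2b probe sets, 4 reached it in liver and were tested with limma, and these 4 passed an adjusted p of 0.05 with a higher signal in PB livers. They reached the level through the PB livers only, since all 4 control means were under 50. With no filter 4 of the 6 Cyp2b probe sets were called higher, where 2.04% of all probe sets were. Across the array 5.88% of the 18981 probe sets tested in liver were called higher (1116 higher and 1220 lower, or 837 and 1439 with arrays centred on their medians). In all 4 probe sets every PB liver lay above every control liver, a separation seen in 1.02% of the probe sets tested.

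**Figure D1:**
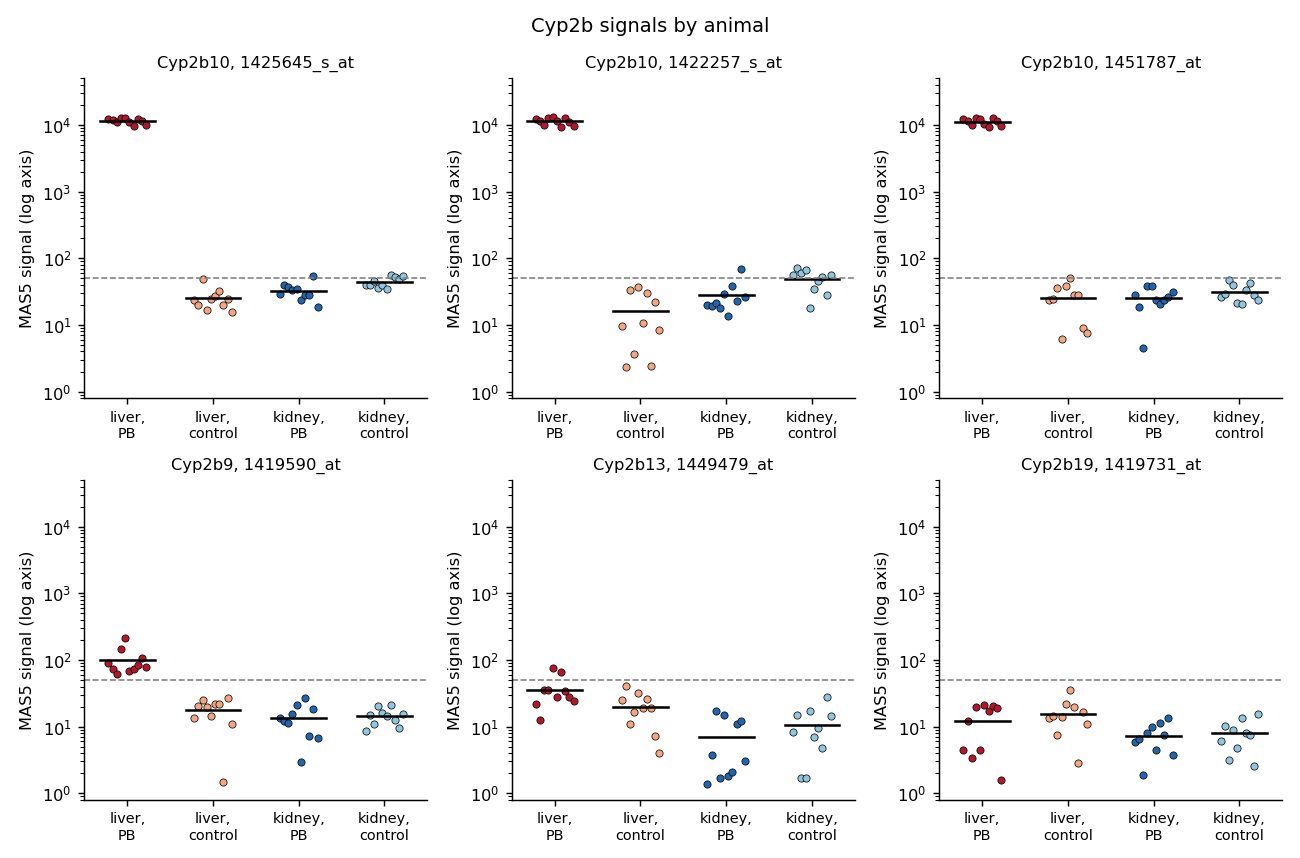
MAS5 signal (log axis) of each Cyp2b probe set in each animal, with 10 points a group and the group mean as a line. All 10 PB livers sit at 9213.0 or higher in the 3 Cyp2b10 panels and the other 3 groups at 70.9 or lower, and the dashed line marks a signal of 50.

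Cyp2b10 signals by 1425645_s_at were 12101.1, 11758.9, 11036.4, 12773.5, 12643.5, 10997.9, 9730.5, 12306.9, 11591.1 and 9877.0 in the livers of PB mice 11 to 20, against 23.3, 20.1, 49.5, 16.5, 24.1, 27.2, 32.6, 20.2, 24.9 and 15.7 in the livers of control mice 1 to 10. PB livers 14 and 15 were the highest and 17 and 20 the lowest, and the lowest PB liver was 196.6 times the highest control liver. The mean was 11481.7 ± 1067 in PB livers and 25.41 ± 9.84 in control livers (SD, n = 10 each). Since the control mean was under 50, the fold was bounded as the PB mean over 50, which was at least 229.6-fold. In the limma fit the log2 fold change was 8.89 (SE 0.14, adjusted p = 9.47e-23), the smallest p of all probe sets tested.

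The other 2 Cyp2b10 probe sets gave the same order of groups in liver. By 1422257_s_at the PB livers ran between 9428.4 and 13081.9 (median 11595) and the control livers between 2.3 and 36.7 (median 10.2), at least 228.1-fold, with a log2 fold change of 10.09 (SE 0.43, adjusted p = 3.03e-14, limma). By 1451787_at the PB livers ran between 9213.0 and 12739.5 (median 11529) and the control livers between 6.1 and 51.2 (median 25.95), at least 224.4-fold, with a log2 fold change of 9.09 (SE 0.30, adjusted p = 2.44e-16, limma). Animals differed little from each other within the PB livers, with a coefficient of variation between 9.29% and 11.5% over the 3 probe sets. The control livers varied more in relative terms, between 38.7% and 84.1%, at signals that were under 50 in all arrays but 1 of 1451787_at. The size of the log2 fold change therefore rests on signals below the level of 50, and with every signal under 50 set to 50 it was 7.84, 7.83 and 7.80 for 1425645_s_at, 1422257_s_at and 1451787_at.

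Cyp2b9 was also higher in PB livers. Its values were 90.8, 73.3, 61.7, 148.3, 213.5, 69.5, 73.7, 84.4, 107.4 and 79.4 in PB livers 11 to 20, against 13.5, 20.1, 25.4, 19.9, 14.3, 21.9, 21.7, 1.5, 26.8 and 11.0 in control livers 1 to 10. PB livers 15 and 14 stood above the rest, and no PB liver overlapped with the control livers. The mean was 100.2 ± 46.9 in PB livers and 17.6 ± 7.62 in control livers (SD, n = 10 each), at least 2.004-fold against a level of 50. The log2 fold change was 2.68 (SE 0.39, adjusted p = 5.00e-05, limma), and it was 0.89 (adjusted p = 0.000549) with signals under 50 set to 50. Leaving out each array in turn gave log2 fold changes between 2.32 and 2.78, all called.

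Cyp2b13, whose start region is nearly identical to that of Cyp2b9, was not tested because its mean was below 50 in both groups. Its signals were 21.5, 12.4, 35.8, 35.8, 75.1, 27.4, 65.4, 34.2, 28.0 and 24.6 in PB livers 11 to 20, against 24.8, 40.5, 10.9, 16.7, 31.5, 18.9, 26.0, 18.8, 7.2 and 4.0 in control livers 1 to 10. Only PB livers 15 and 17 exceeded every control liver, and the groups overlapped. The mean was 36.02 ± 19.5 in PB livers and 19.93 ± 11.2 in control livers (SD, n = 10 each). With no filter the log2 difference was 0.95 (SE 0.38, p = 0.0199), which did not pass after adjustment over all 45037 probe sets (limma, adjusted p = 0.203). Cyp2b19 was not called in liver, with signals between 1.6 and 21.1 in PB livers and between 2.8 and 36.0 in control livers (log2 difference -0.55, SE 0.51, limma adjusted p = 0.69 with no filter). The keratinocyte is the cell type in which Cyp2b19 is known to act. Of the keratinocyte markers Krt5, Krt14, Krt1, Krt10, Lor and Flg, 2 reached a mean of 50 in liver. Neither was called, beside 6.45% of all genes called higher and 7.72% lower.

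**Figure D2:**
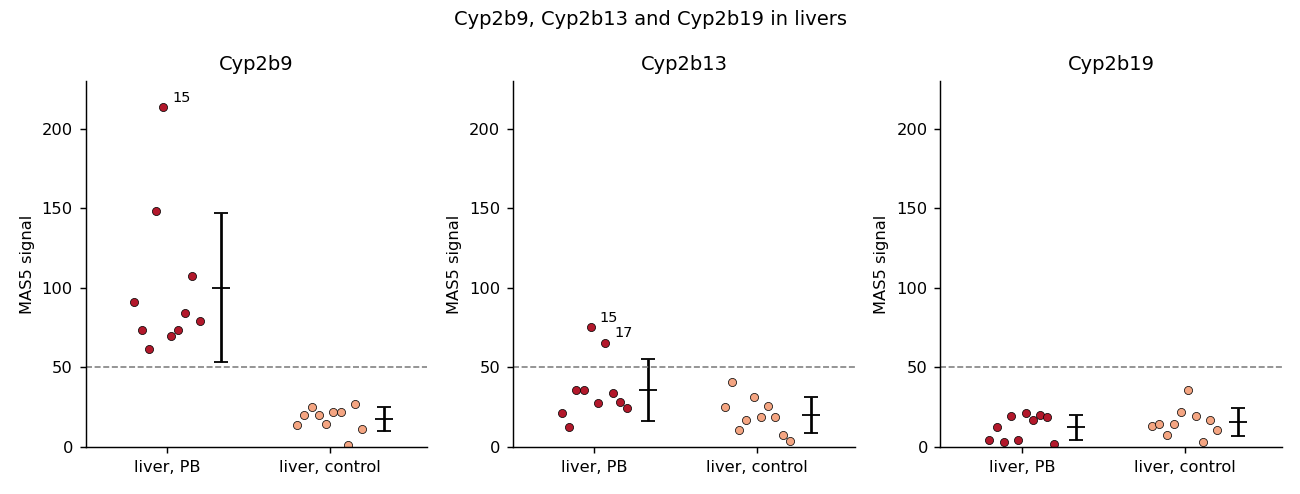
MAS5 signal of Cyp2b9, Cyp2b13 and Cyp2b19 in each liver, PB left of control, with bars for the mean ± SD (n = 10) and a dashed line at 50. All PB livers lie above all control livers for Cyp2b9 only, and PB liver 15 is the highest in Cyp2b9 (213.5) and Cyp2b13 (75.1).

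Within the 10 PB livers it was asked whether animals with a higher signal of one Cyp2b gene also had a higher signal of another. A total of 14 pairs was tested on log2 signals with permutation tests (100000 resamples, two-sided) and Benjamini-Hochberg adjustment. The Cyp2b10 probe sets followed each other with Pearson's r between 0.95 and 0.98 (Spearman's rho between 0.93 and 0.98, adjusted permutation p at most 0.00154), and without the 2 animals farthest from the median, 17 and 20, r was still between 0.86 and 0.97. Cyp2b10 by 1425645_s_at and Cyp2b9 had r = 0.63 (permutation p = 0.0461, adjusted 0.0807) and rho = 0.68 (permutation p = 0.0341, adjusted 0.0795), which did not pass the adjustment. Without animals 17 and 20 this r was 0.79. Transcripts of related P450s can bind to each other's probes, and the part of Cyp2b10 transcripts in the Cyp2b9 signal was not tested.

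Cyp2b10 was also set against 4 other genes. Its signal in PB livers rose with that of Nr1i2 (PXR, the pregnane X receptor, a relative of CAR) with r = 0.88 (permutation p = 0.00033, adjusted 0.00116) and rho = 0.78 (adjusted permutation p = 0.0361), and r was 0.71 without animals 17 and 20. Nr1i2 itself was not called between the groups, with 195.56 ± 18.9 in PB livers and 158.25 ± 40.9 in control livers (log2 fold change 0.34, limma adjusted p = 0.0734). Cyp2b10 had r = 0.72 with Cyp2c55, another PB-inducible P450 (adjusted permutation p = 0.0545, and r = 0.48 without animals 17 and 20), r = 0.43 with Nr1i3 (adjusted permutation p = 0.282) and r = -0.12 with Alas1, the first enzyme of haem synthesis (adjusted permutation p = 0.875). None of the 4 pairs of Cyp2b9 with these genes passed the adjustment. The labels also give each array a number, whose meaning is not stated. PB livers 17 and 20 had the highest of these numbers among the PB livers. The part of the array number in the correlations within PB livers was not tested.

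In kidney, the non-target tissue of the study, none of the 6 Cyp2b probe sets reached a mean of 50 in either group. Cyp2b10 by 1425645_s_at was 29.5, 39.4, 36.9, 32.9, 34.4, 23.6, 28.1, 27.8, 55.1 and 18.4 in the kidneys of PB mice 11 to 20, against 39.7, 39.4, 45.0, 35.3, 39.5, 34.5, 56.3, 53.1, 48.2 and 53.9 in the kidneys of control mice 1 to 10. 7 of 10 PB kidneys were below all control kidneys and PB kidney 19 was near the top of the control range. The mean was 32.61 ± 10.1 in PB kidneys and 44.49 ± 7.99 in control kidneys (SD, n = 10 each). By 1422257_s_at it was 27.65 ± 16.0 in PB kidneys and 48.86 ± 17.3 in control kidneys, and by 1451787_at 25.17 ± 9.79 in PB kidneys and 31.13 ± 9.26 in control kidneys. With no filter the log2 differences were -0.49 (p = 0.0065, limma adjusted p = 0.196), -0.87 (p = 0.00344, adjusted 0.145) and -0.42 (adjusted 0.633), so that no Cyp2b probe set was called, where 0.353% of all 45037 probe sets were called lower. Cyp2b9 averaged 13.55 ± 7.09 in PB kidneys and 14.37 ± 4.13 in control kidneys, Cyp2b13 6.94 ± 6.23 in PB kidneys and 10.74 ± 8.16 in control kidneys, and Cyp2b19 7.25 ± 3.57 in PB kidneys and 8.02 ± 4.19 in control kidneys.

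Of the hepatocyte genes, only Alb, Fgb and Apob were looked at kidney by kidney. PB kidney 19 had the highest signal of the PB kidneys in Alb and Fgb and by 2 of the 3 Cyp2b10 probe sets. Its Alb (albumin) signal was 1029.6, against 79.8 to 173.8 in the other PB kidneys, and its Fgb (fibrinogen) signal was 56.4, against 0.5 to 3.9. Apob (apolipoprotein B), at 477.6, and Cyp2b10 by 1451787_at, at 26.4, were within the range of the other PB kidneys (215.8 to 544.2 and 4.5 to 38.0). Control kidneys 1, 3, 9 and 10 had Alb signals of 582.7, 922.8, 735.8 and 416.1, and Fgb signals of 42.7, 48.6, 47.3 and 34.4. Their Cyp2b10 signals by 1422257_s_at were 56.3, 60.1, 27.9 and 56.9. The highest control signals of this probe set, 70.9 and 67.1, were in kidneys 2 and 4 (Alb 144.2 and 72.9). By 1425645_s_at the highest was 56.3, in control kidney 7 (Alb 83.6). Alb and Fgb were high beside 2 Cyp2b10 probe sets in PB kidney 19, and their part in the Cyp2b10 signals was not tested. Without PB kidney 19 the log2 differences of Cyp2b10 in kidney were -0.58 (limma adjusted p = 0.0905) by 1425645_s_at, -1.03 (adjusted 0.0511) by 1422257_s_at and -0.45 (adjusted 0.643) by 1451787_at, again with no call. Without the 5 kidneys with an Alb signal over 400 they were -0.52 (adjusted 0.385), -0.98 (adjusted 0.252) and -0.44 (adjusted 0.778) in the same order of probe sets. Both sets of kidneys were chosen after seeing the data.

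**Figure D3:**
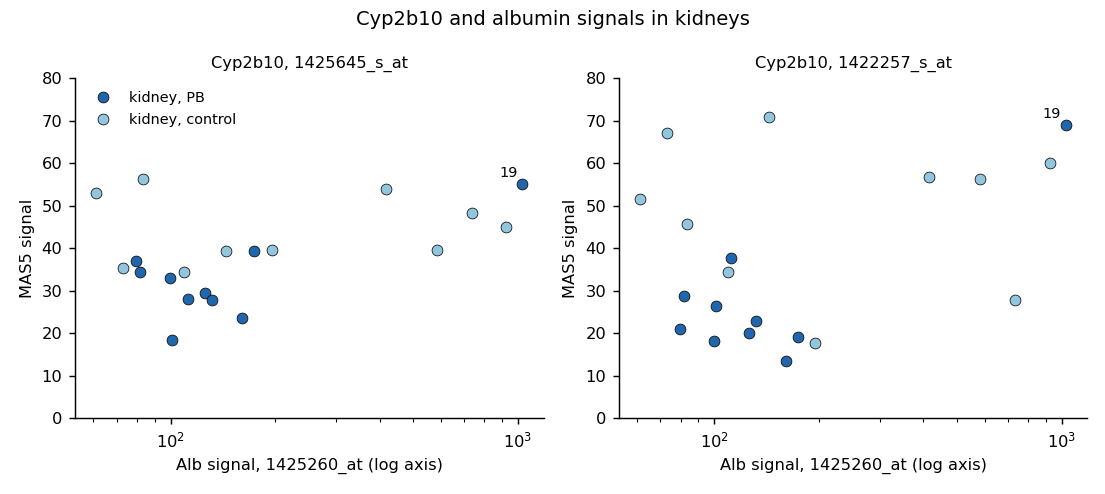
MAS5 signal of Cyp2b10 in each kidney by 1425645_s_at (left) and 1422257_s_at (right) against that of Alb (log axis), with PB kidneys in dark and control kidneys in light blue. PB kidney 19 has the highest Alb signal (1029.6) and the highest Cyp2b10 signal of the PB kidneys in both panels (55.1 and 69.0). The highest control kidneys (56.3 and 70.9) have Alb signals of 83.6 and 144.2.

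The PB effect differed between liver and kidney for the Cyp2b probe sets that reached a mean of 50 in any group. They did so through the PB livers only, since their means in all other groups were under 50. With no filter they were also called (limma adjusted p = 0.000345 for Cyp2b9 and lower for Cyp2b10). The log2 effect of PB in liver minus that in kidney was 9.38 (SE 0.22, limma adjusted p = 3.75e-31) for Cyp2b10 by 1425645_s_at, 10.96 (SE 0.54, adjusted p = 3.20e-19) by 1422257_s_at and 9.51 (SE 0.44, adjusted p = 4.37e-20) by 1451787_at. For Cyp2b9 it was 2.94 (SE 0.53, adjusted p = 0.000224), and 0.89 (adjusted p = 0.000305) with signals under 50 set to 50. In that setting every Cyp2b9 signal outside the PB livers was 50, so that the value repeats the liver effect and the kidneys add nothing. The Cyp2b10 values were then 7.86, 7.94 and 7.80 in the same order of probe sets. Across the array 3.13% of the 21866 probe sets in this test were called in this direction (684 higher in liver and 673 lower, or 437 and 915 with arrays centred on their medians). Cyp2b13 gave 1.72 (SE 0.72, adjusted p = 0.265) and Cyp2b19 -0.41 (SE 0.65, adjusted p = 0.865) with no filter.

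**Figure D4:**
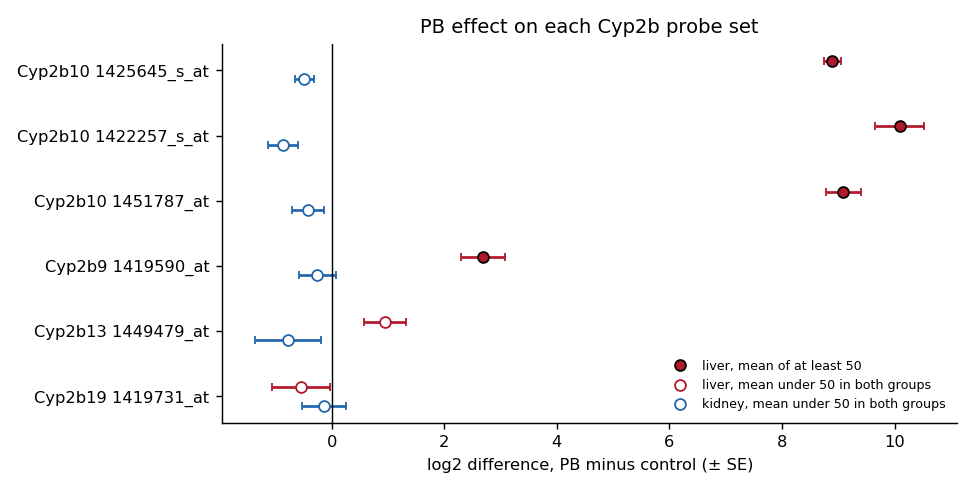
Log2 difference of PB minus control (± SE) for each Cyp2b probe set in liver (red) and kidney (blue), with filled points where a group mean reached 50 and open points where both were lower. The 3 Cyp2b10 probe sets lie between 8.89 and 10.09 in liver and between -0.87 and -0.42 in kidney.

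Between tissues, PB livers were above PB kidneys of the same animals for Cyp2b10 (log2 differences of 8.51, 8.84 and 8.96 for 1425645_s_at, 1422257_s_at and 1451787_at) and for Cyp2b9 (3.00, SE 0.37, limma adjusted p = 1.60e-09). That call was common, at 34.8% of the probe sets tested. Cyp2b13 was also higher in PB liver with no filter (36.02 ± 19.5 in PB livers and 6.94 ± 6.23 in PB kidneys, log2 difference 2.82, limma adjusted p = 6.89e-06), where 33.8% of all probe sets were called higher, and 9 of 10 PB livers were above all PB kidneys. In control mice both tissues averaged under 50 for all 3 Cyp2b10 probe sets, which entered this comparison through the PB livers only. Cyp2b10 was called lower in control liver, with 25.41 ± 9.84 in control livers and 44.49 ± 7.99 in control kidneys by 1425645_s_at (log2 difference -0.87, SE 0.15, adjusted p = 3.01e-06) and 16.04 ± 13.5 in control livers and 48.86 ± 17.3 in control kidneys by 1422257_s_at (-2.12, SE 0.38, adjusted p = 3.84e-06). With signals under 50 set to 50 the difference by 1425645_s_at was -0.037 and no longer called (adjusted p = 0.46), and that by 1422257_s_at was -0.16 (adjusted p = 0.0324). By 1451787_at the difference was -0.55 (adjusted p = 0.102), and 42.9% of all probe sets tested were called lower in control liver. Control liver and control kidney gave no call for Cyp2b9 (log2 difference 0.07, adjusted p = 0.871). The median log2 difference over all probe sets was -0.10 in PB mice and -0.08 in control mice, or -0.23 and -0.16 with arrays centred on their medians. For Cyp2b10 by 1425645_s_at the group means were in the order PB liver, control kidney, PB kidney and control liver, and only PB liver was free of overlap with its neighbour. The other 3 means were all under 50, so that no order among them is read.

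Genes linked to Cyp2b10 and Cyp2b9 were described by lists. The first list held nuclear receptors and cofactors that regulate Cyp2b genes, and other genes of CAR signalling such as Egfr, not activators alone. Of 19 CAR, PXR and partner regulators tested in liver, 2 rose and 2 fell, and their median log2 fold change was -0.06 beside -0.02 over all 9976 genes, of which 6.45% were called higher and 7.72% lower. With no filter, where 2.85% of 18193 genes were called higher and 3.04% lower, 2 of these 19 rose and 1 fell. Gadd45b, a stress-response coactivator of CAR, averaged 134.55 ± 48.0 in PB livers and 19.88 ± 21.0 in control livers (at least 2.691-fold against a level of 50, limma adjusted p = 5.00e-05). Gadd45b was thus tested through the PB livers only, and it is also counted among the CAR target genes below. Egfr, the growth factor receptor that PB is known to block on the way to CAR activation, averaged 3392.5 ± 1212 in PB livers and 6557.7 ± 1667 in control livers (log2 fold change -0.96, SE 0.19, adjusted p = 0.00133). Nr1i3 itself averaged 462.55 ± 48.1 in PB livers and 373.2 ± 64.1 in control livers (log2 fold change 0.32, SE 0.09, adjusted p = 0.0212), with 5 of 10 PB livers above all control livers. The fourth gene called, named after its values were seen, was Rxra, the partner of CAR (log2 fold change -0.25, adjusted p = 0.0288). In kidney none of 15 tested was called by limma (2.17% of 10083 genes were called higher and 1.57% lower), and 3 had an unadjusted p under 0.05.

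Known CAR target genes other than Cyp2b rose together in liver. Of 28 tested, 26 were called higher and none lower (median log2 fold change 1.28), beside 6.45% and 7.72% of all genes. The list was drawn up with results of these data known. Of the 26, 4 reached a mean of 50 through the PB livers only. With no filter 25 of 29 were called higher and none lower, beside 2.85% and 3.04% of all genes. Cyp2c65 averaged 1513.9 ± 234 in PB livers and 10.79 ± 6.18 in control livers, at least 30.28-fold against a level of 50. Cyp2c55 averaged 8805 ± 905 in PB livers and 271.56 ± 72.5 in control livers (log2 fold change 5.06, SE 0.12). Sult1e1, the oestrogen sulphotransferase, averaged 140.45 ± 53.9 in PB livers and 15.45 ± 17.2 in control livers, at least 2.809-fold. The genes not called, named after their values were seen, were Cyp3a11, with 20568 ± 2440 in PB livers and 19641 ± 2219 in control livers, and Cyp1a1, with 52.99 ± 22.3 in PB livers and 50.94 ± 13.6 in control livers. In kidney 3 of 16 were called higher (2.17% of all genes), named after their values were seen: Gsta2 (log2 fold change 0.62), Aldh1a1 (0.45) and Aldh1a7 (0.37).

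**Figure D5:**
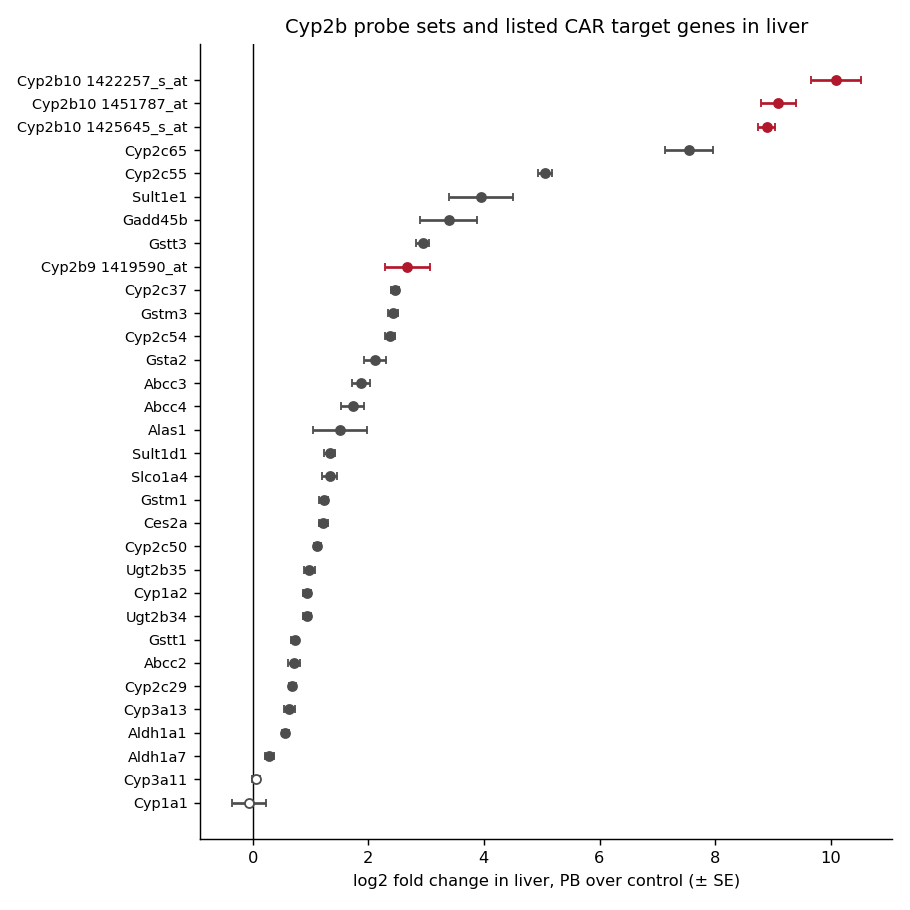
Log2 fold change of PB over control in liver (± SE) for the 4 Cyp2b probe sets tested (red) and 28 other listed CAR target genes (grey, open where not called). The Cyp2b10 probe sets lie between 8.89 and 10.09 and Cyp2b9 at 2.68, and for genes with a control mean under 50, these and Cyp2c65 among them, the plotted value and so the order rest on signals below that level.

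P450 enzymes need haem and an electron supply, and of 16 listed genes of these functions 14 had a probe set. In liver 5 of the 14 rose and none fell (median log2 fold change 0.12), beside 6.45% and 7.72% of all genes. With no filter 3 of 14 rose and none fell, beside 2.85% and 3.04% of all genes. Alas1, the first enzyme of haem synthesis, had 5424.8 ± 3068 in PB livers and 2352.1 ± 2339 in control livers (log2 fold change 1.51, SE 0.46, limma adjusted p = 0.0325), and its groups overlapped, with 4 PB livers above all control livers. Alas1 is also counted among the CAR target genes that rose. Cyb5a, the cytochrome b5 that passes electrons to P450s, was higher in all 10 PB livers than in any control liver (17106 ± 888 in PB livers and 13555 ± 910 in control livers). Blvrb, a biliverdin reductase, averaged 1058.9 ± 150 in PB livers and 849.73 ± 119 in control livers. Pgrmc1 and Alad, named after their values were seen, rose by 0.22 and 0.21 on the log2 scale. In kidney 1 of 14 was called, beside 2.17% of all genes called higher and 1.57% lower. It was Cyb5b (log2 fold change 0.16), named after its values were seen.

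Of 19 listed neighbours of Cyp2b in the gene cluster, 12 had a probe set and 9 were tested in liver. Of these 9, 1 was called higher, beside 6.45% of all genes called higher. It was Cyp2g1, known as an olfactory P450, which is the next protein-coding gene beside Cyp2b19 in the annotation. Cyp2g1 averaged 124.51 ± 32.6 in PB livers and 33.15 ± 7.07 in control livers (at least 2.49-fold against a level of 50, limma adjusted p = 3.55e-09), so that it too was tested through the PB livers only, and all 10 PB livers were above all control livers. Further along lie Cyp2a5 and Cyp2a22, to which no probe set was matched, and then Cyp2a12. Cyp2a12 gave 7506.9 ± 338 in PB livers and 7069.7 ± 486 in control livers and was not called (named after its values were seen). No neighbour was called in kidney by limma (0 of 8, with 1 at an unadjusted p under 0.05), beside 2.17% of all genes called higher and 1.57% lower. Of 26 other Cyp2 family genes tested in liver, 11 rose and 2 fell (6.45% and 7.72% of all genes). Of the 11, 3 reached a mean of 50 through the PB livers only. With no filter 11 of 30 rose and 2 fell, beside 2.85% and 3.04% of all genes. Some of them also stand in the CAR target list, Cyp2g1 also among the neighbours, and Cyp2u1 also among the male-predominant genes below. Besides Cyp2c65 and Cyp2c55, Cyp2d12 rose to 268.87 ± 89.9 in PB livers, against 36.85 ± 9.49 in control livers. Those that fell, named after their values were seen, were Cyp2c68 (3002.3 ± 608 in PB livers and 6917.5 ± 814 in control livers) and Cyp2u1 (log2 fold change -0.42). In kidney 2 of 14 rose, Cyp2d9 and Cyp2d12, and 1 fell, Cyp2j13, beside 2.17% and 1.57% of all genes. All 3 were named after their values were seen.

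Because Cyp2b9 and Cyp2b13 are female-predominant in mouse liver, genes of sex-biased expression were looked at beside them in these males. Of 13 female-predominant genes with a probe set, 6 reached a mean of 50 in liver, and 2 of the 3 that rose did so through the PB livers only. With no filter 3 of the 13 rose and none fell, beside 2.85% and 3.04% of all genes. Nebl, a nebulin-related actin-binding protein, averaged 237.19 ± 46.9 in PB livers and 7.65 ± 7.20 in control livers, at least 4.744-fold against a level of 50. Prom1 (prominin) averaged 141.62 ± 65.7 in PB livers and 31.39 ± 7.37 in control livers (at least 2.832-fold), and Cux2, a female-specific transcription factor of mouse liver, 178.49 ± 30.9 in PB livers and 137.54 ± 27.4 in control livers. Of 17 male-predominant genes, 3 rose and 4 fell, beside 6.45% and 7.72% of all genes (1 rose and 4 fell with no filter). Moxd1 rose by 1.99 on the log2 scale (991.5 ± 648 in PB livers and 382.53 ± 498 in control livers), while Egfr, also on the regulator list, and Ugt2b38 (621.67 ± 182 in PB livers and 1088.3 ± 232 in control livers) fell. The remaining calls, named after their values were seen, were Ugt2b1 and Cyp4a12a among those that rose and Cyp7b1 and Cyp2u1 among those that fell. In kidney 3 of 6 female-predominant genes rose and 1 fell, and 2 of 10 male-predominant genes rose and 2 fell, beside 2.17% and 1.57% of all genes.

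Beyond the lists, the 5 genes most like each of Cyp2b10 and Cyp2b9 were found by Pearson's r of log2 signals over the 40 arrays. This measure follows mainly the step between the PB livers and the other 3 groups, and it is given without a test. For Cyp2b10 they were Cyp2c65 (r = 0.945), 1700067K01Rik (0.943), Gstt3 (0.942), Meg3 (0.914) and Tmed3 (0.884). For Cyp2b9 they were Meg3 (0.802), Gstm2 (0.795), Gm10419 (0.793), 1700067K01Rik (0.792) and Cyp2c65 (0.787). Meg3, a maternally expressed noncoding RNA, was thus in both groups, and by probe set 1426758_s_at it averaged 420.34 ± 91.9 in PB livers, 96.99 ± 20.5 in control livers, 51.86 ± 10.1 in PB kidneys and 60.12 ± 13.3 in control kidneys.

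The labelled tissues were checked against cell type markers. Summed over 7 hepatocyte genes, signals ran between 91152 and 128560 in PB livers and between 98794 and 132860 in control livers, and between 7950.7 and 10183 in PB kidneys and between 7303.1 and 13768 in control kidneys. The kidney sums held mainly Ttr, with means of 8514.6 in PB kidneys and 9704.4 in control kidneys. Alb, Apoa1, Fgb and Tat averaged at most 332.42 in either kidney group. Ass1 was higher in kidney (309.49 with PB and 312.67 in controls) than in liver (240.27 and 256.69). Of these 7 genes, 1 fell in PB liver, Fgb (18144 ± 2062 in PB livers and 22083 ± 2087 in control livers), and none rose, beside 7.72% and 6.45% of all genes. Summed over 8 kidney tubule genes, signals ran between 99.3 and 417.4 in PB livers and between 87.8 and 1679.8 in control livers, and between 48493 and 60301 in PB kidneys and between 45418 and 61442 in control kidneys. Neither of the 2 tubule genes tested in liver was called, beside 6.45% of all genes called higher and 7.72% lower. Of 9 markers of other liver cells tested, 3 fell in PB liver and none rose, beside 7.72% and 6.45% of all genes. They were Stab2 of sinusoidal endothelium (403.82 ± 33.5 in PB livers and 524.91 ± 56.2 in control livers), Dcn of fibroblasts (1247 ± 143 in PB livers and 1541.1 ± 158 in control livers) and Des of stellate cells (34 ± 21.2 in PB livers and 60.81 ± 18.6 in control livers). Des reached a mean of 50 through the control livers only. With no filter 2 of the 14 listed fell, beside 3.04% of all genes. The other markers tested, Kdr and Col3a1 among them, were not called (limma adjusted p = 0.432 and 0.817). In kidney 5 hepatocyte, 8 tubule, 10 other liver cell and 1 keratinocyte markers were tested. None was called by limma, beside 2.17% of all genes called higher and 1.57% lower, and 3 had an unadjusted p under 0.05. The part of these markers in the Cyp2b differences was not tested.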

How the data were processed

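RNA of 20 livers and 20 kidneys was labelled and hybridised to Affymetrix mouse arrays. The deposited intensity values are MAS5 signals on a linear scale, computed by the authors (the labels name GCOS, version not given in the sources used here), with every array brought to a trimmed mean of 150. Array medians ran between 30.0 and 37.2, and precision is limited by the number of arrays. Of all probe sets, 34945 had 1 symbol (34741 matched to RefSeq by gene number), 932 several and 9160 none.

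Signals under 1 were set to 1 and log2-transformed. Within a tissue, probe sets whose mean reached 50 in either group were tested with limma 3.58.1 (trended variance, R 4.3.3), and p-values were adjusted by Benjamini-Hochberg over all of them, called under 0.05. Differences between tissues came from a fit of all 40 arrays. For a listed gene the brightest probe set was used. Liver and kidney of the same number came from the same animal. Over 16344 probe sets their deviations from the group means had a median correlation of 0.079 (-0.068 to 0.188), against -0.0094 between animals. The fits were tested on simulated data.

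All probe sets of the 4 genes were named, with up to 3 called genes of each list by largest liver change and the 5 most alike genes. Members and lists were chosen with earlier results of these data known. Counts over the lists with no filter were added after seeing the data. Alternatives changed the filter, floor, offset, normalization, test, fit and animals.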

Additional observations from a re-analysis of the deposited data

Results flagged for a closer look

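The PB effect on Cyp2b10 and Cyp2b9 differed between liver and kidney by a test of the difference itself (limma, all 40 arrays). Their probe sets entered this test through the PB livers only. The log2 effect in liver minus that in kidney was 9.38 for Cyp2b10 by 1425645_s_at, 10.96 by 1422257_s_at, 9.51 by 1451787_at and 2.94 for Cyp2b9, with an adjusted p of at most 0.000224.

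Of 24 groups of 10 signals, 1 for each Cyp2b probe set and group, 2 held a value whose gap to its neighbour was a larger part of the group's range than Dixon's test allows at 95%. Chance alone gives about 1 in 20 groups. Control liver 3 had 49.5 for Cyp2b10 by 1425645_s_at, with the next control liver at 32.6. PB kidney 19 had 69.0 for Cyp2b10 by 1422257_s_at, with the next PB kidney at 37.8, and it also had the highest Alb signal of the PB kidneys (1029.6).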

How the results depend on the processing

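The calls of Cyp2b10 and Cyp2b9 in liver and in liver against kidney kept their direction and their side of the threshold under every alternative run, and with each array or animal left out. The replicate block of the animal changed no call: the Cyp2b9 PB effect in liver against kidney kept its log2 value of 2.94, with adjusted p = 0.000405 (animal fixed) and 0.000132 (animal random). In control mice the lower Cyp2b10 signal of liver by 1425645_s_at was no longer called with signals under 50 set to 50 (log2 difference -0.037, limma adjusted p = 0.46), since nearly all signals then sit at 50, and 1451787_at became called with quantile normalization (-0.69, adjusted p = 0.037) and without animals 5 (-0.71) or 6 (-0.76). The count of probe sets called in liver (2336) stayed between 1799 and 3382. In kidney 627 were called (345 higher and 282 lower, or 350 and 134 with arrays centred on their medians). Kidney gave 335 with no filter and 203 with all 40 arrays in 1 fit, and between 392 and 850 with 1 kidney left out (411 without PB kidney 19, 392 without control kidney 8), and the cause was not tested. The methods' t-test, run on linear signals, called 2165 in liver and 419 in kidney after Benjamini-Hochberg adjustment, and 373 and 59 at the p and fold thresholds of the methods, with 4 Cyp2b probe sets in liver and 0 in kidney. Cyp2b13, Cyp2b19 and all Cyp2b kidney signals lie where array signal is low. With means under 50, their PB effects were left out of the alternatives of floor, offset, normalization and test. They were not called in the few settings run, which were no filter and, in kidney, no filter without the kidneys named above. For Cyp2b10 and Cyp2b9 in kidney the fit of all 40 arrays was also run, with no call. The lowest adjusted p among these was 0.0511 (limma), for 1422257_s_at without PB kidney 19.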
